A study of Mus musculus with 76 samples.

Results

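The genes described here encode the extracellular matrix, the protein scaffold between cells, and the enzymes that build and cut it. They were a fixed list of 42 gene symbols, all of which were found among the 54232 genes of the deposited count table, and all 42 had enough reads to be tested in each tissue. Fibrillar members were the fibrillar collagens Col1a1, Col1a2, Col3a1, Col5a1 and Col5a2 with the fibril-associated collagens Col12a1, Col14a1 and Col16a1 (8 genes). Basement membrane members were Col4a1, Col4a2, Col4a3, Col4a4, Col15a1 and Col18a1 (6 genes). Remodelling members were the crosslinking enzymes Lox, Loxl1 and Loxl2, the metalloproteinases Mmp2, Mmp14 and Mmp15, and the metalloproteinase inhibitors Timp1, Timp2 and Timp3 (9 genes). The other 19 were the microfibrillar collagens Col6a1, Col6a2 and Col6a3, the network collagen Col8a1, the glycoproteins Fn1, Postn, Sparc, Thbs1, Thbs2 and Tnc, the small proteoglycans Dcn, Lum and Bgn, and the elastic fibre genes Eln, Fbn1, Fbln1, Fbln2, Mfap4 and Mfap5.

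Bulk RNA sequencing was done on heart, kidney and visceral fat (labelled VFAT) of male SCID mice, strain CB17/Icr-Prkdcscid/IcrlcoCrl, at 12 weeks of age. Each tissue had 5 arms: Sham surgery with no cells, partial nephrectomy (PNx, the surgical removal of part of the kidney tissue) with no cells, and PNx followed by control cells, by cells labelled Lenti-adipo-NaKtide (called NaKtide cells here) or by cells labelled Lenti-adipo-scrambled (called scrambled cells here). NaKtide is a peptide inhibitor of Src signalling through the Na/K-ATPase, and the scrambled form is its sequence control. Each group had 5 samples except the fat of mice given scrambled cells, which had 4. All groups share the Prkdc scid mutation, which leaves mice without mature T and B lymphocytes, so any matrix response that needs those cells is outside the model. The labels do not give the source, number or route of the cells, the meaning of "adipo", the time after surgery, which part of the operated kidney was sampled, or whether the 3 tissues came from the same mice. They do not say that the samples of a group came from separate mice, and the p-values therefore reflect the spread among samples as labelled, part of which may be technical.

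Fibrillar collagens form the tension-bearing fibres of connective tissue, and their synthesis by fibroblasts, with crosslinking by lysyl oxidases, is the hallmark of fibrosis in the heart and the kidney after loss of kidney function. Type IV collagens form the sheet-like basement membranes under epithelia and around capillaries, muscle fibres and adipocytes, and the Col4a3 and Col4a4 chains belong to the network of the mature glomerular basement membrane. Matrix metalloproteinases cut these proteins, and the tissue inhibitors (Timp genes) block them, so the balance of both classes sets how fast matrix is turned over.

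The bases just upstream of genes that the results turn on are printed first, from RefSeq's GRCm38.p6 and read on the gene's strand, because Timp1, Timp3 and Mmp15 passed the test in the kidney and because Col4a3 and Col4a4, whose values moved side by side below, start head to head. Capitals mark a GC box (GGGCGG on either strand, the element that Sp1 family factors bind). The windows of Timp1 (chrX:20870066-20870165), Timp3 (chr10:86300272-86300371) and Mmp15 (chr8:95352168-95352267) are the 100 bases before the start in GENCODE M21, and the fourth is the whole 71-base stretch between the starts of Col4a4 and Col4a3 (chr1:82586850-82586920). RefSeq has the same start for Timp1 and later ones for Timp3 (86300412) and Mmp15 (95352296).
Timp1: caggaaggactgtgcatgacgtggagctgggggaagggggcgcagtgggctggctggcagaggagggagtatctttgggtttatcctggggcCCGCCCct
Timp3: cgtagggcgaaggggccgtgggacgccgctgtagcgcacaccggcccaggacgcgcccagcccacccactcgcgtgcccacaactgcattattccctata
Mmp15: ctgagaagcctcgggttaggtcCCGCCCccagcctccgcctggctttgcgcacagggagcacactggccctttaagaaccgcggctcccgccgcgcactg
Col4a4 to Col4a3: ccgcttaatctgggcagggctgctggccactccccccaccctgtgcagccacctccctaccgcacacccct
Timp1 and Mmp15 each held 1 GC box, and Timp3 and the Col4a4 to Col4a3 stretch held none. For Timp3 and Mmp15 this depends on the start used: the 100 bases before the RefSeq start held 1 GC box for Timp3 and 0 for Mmp15. None of the 4 printed windows held a CCAAT box, a TATAAA element or an AP-1 site (TGANTCA), each searched on both strands. In the 100 bases before the start of 32851 RefSeq promoters a GC box stood in 24.7%, a CCAAT box in 18.9%, a TATAAA element in 5.56% and an AP-1 site in 2.73%. In 71-base windows the shares were 20.7%, 13.3%, 4.41% and 1.86%. These are matches of letters, not sites shown to be used. The other type IV pair, Col4a1 and Col4a2, is also head to head, on chromosome 8, with first transcribed bases 11312826 and 11312805 on opposite strands. RefSeq upstream sequence was matched for 26 of the 42 members.

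Libraries held 2803991 to 12986214 counts in the heart, 1241590 to 16912788 in the kidney and 5666563 to 22287510 in fat. Levels are CPM, that is, counts divided by the library's total after TMM scaling within the tissue, and are printed in the order of the sample numbers. The labels of tissue fitted the markers: the 6 cardiomyocyte markers summed to 21037 to 47617 CPM in hearts, the 8 proximal tubule markers to 9266 to 29805 CPM in kidneys, and the 7 adipocyte markers to 2306 to 19798 CPM in fat. Some libraries stood apart in transcripts of another cell type. Heart PNx 1, heart PNx 2, heart scrambled cells 3 and kidney PNx 3 were high in neutrophil markers, heart Sham 2 and 3 in proximal tubule markers, and fat Sham 1, 3, 4 and 5 in epididymis markers. Fat scrambled cells 1, 2 and 4 and Sham 3 were high in skeletal muscle markers, and scrambled cells 2 and 3 in pancreatic acinar markers. In bulk tissue a lower level can mean fewer cells of a type or less RNA per cell, and these cannot be told apart.

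The tissues differed first in the levels of their matrix genes. Levels between genes are compared only as the authors' FPKM, which are per length, given here as mean ± SD of the 5 Sham samples. Sparc, a secreted collagen chaperone and counter-adhesive glycoprotein, was the highest member in fat (223 ± 121 FPKM) and in the heart (118 ± 29.2 FPKM), and stood at 23.4 ± 4.41 FPKM in the kidney. The kidney's highest member was instead Timp3, an inhibitor that stays bound to the matrix, at 97.9 ± 10.01 FPKM against 13.7 ± 5.53 in the heart and 6.93 ± 4.22 in fat. Decorin (Dcn), a proteoglycan on the surface of collagen fibrils, measured 81.6 ± 36.9 FPKM in the heart, 39.1 ± 18.2 in fat and 3.48 ± 0.408 in the kidney. The ubiquitous type IV chain Col4a1 measured 55.2 ± 24.5, 64.1 ± 46.5 and 20.2 ± 1.44 FPKM in the same order.

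Fibrillar collagens were low in the Sham kidney: Col3a1, the type III chain of elastic tissues, measured 1.78 ± 0.281 FPKM there, 16.9 ± 9.80 in the heart and 50.8 ± 38.8 in fat. Col1a1, the main type I chain, measured 1.75 ± 0.408, 14.6 ± 5.87 and 21.2 ± 12.0 FPKM. The spread over Sham fat was wide for both genes, and for them fat and heart overlapped. Mmp15, a membrane-anchored metalloproteinase, had the clearest order of all: 29.2 ± 5.57 FPKM in the heart, 4.07 ± 0.960 in fat and 0.467 ± 0.101 in the kidney. Col4a3 went the other way, at 12.1 ± 1.55 FPKM in the kidney and 0.623 ± 0.443 and 0.659 ± 0.473 in heart and fat, which did not differ beyond their spread. The lowest members by median over all libraries were Col12a1 in the heart (0.0642 FPKM) and in fat (0.208 FPKM) and Mfap5, a microfibril glycoprotein, in the kidney (0.120 FPKM).

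Most members differed between the Sham tissues in edgeR's quasi-likelihood test with Benjamini-Hochberg adjustment, as did most genes. Between kidney and heart 32 members were lower in the kidney and 7 higher, against 58.7% of all 19180 genes called. Those higher in the kidney were Col4a3, Col4a4, Col18a1, Col12a1, Timp3, Thbs1 and Tnc. By class, 6 of 8 fibrillar members were lower in the kidney and 1 higher, basement membrane members divided 3 and 3, and 7 of 9 remodelling members were lower and 1 higher. Between fat and heart 14 members were higher in fat and 10 lower, against 57.1% of genes called, and 5 of 8 fibrillar members were higher and none lower. Between fat and kidney 33 were higher in fat and 4 lower, against 51.5% of genes called, with Col6a2 at a log2 difference of 5.08 and Timp3 at -3.85. Without fat Sham 1 and 4, the Sham fat lowest in adipocyte markers, 19 members were called between fat and heart, beside 24 with them. Between fat and kidney 37 were called either way. The median of the members was -2.37, 0.27 and 2.66 in the 3 comparisons, beside 0.0052, 0.21 and 0.16 for all genes.

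**Figure D1:**
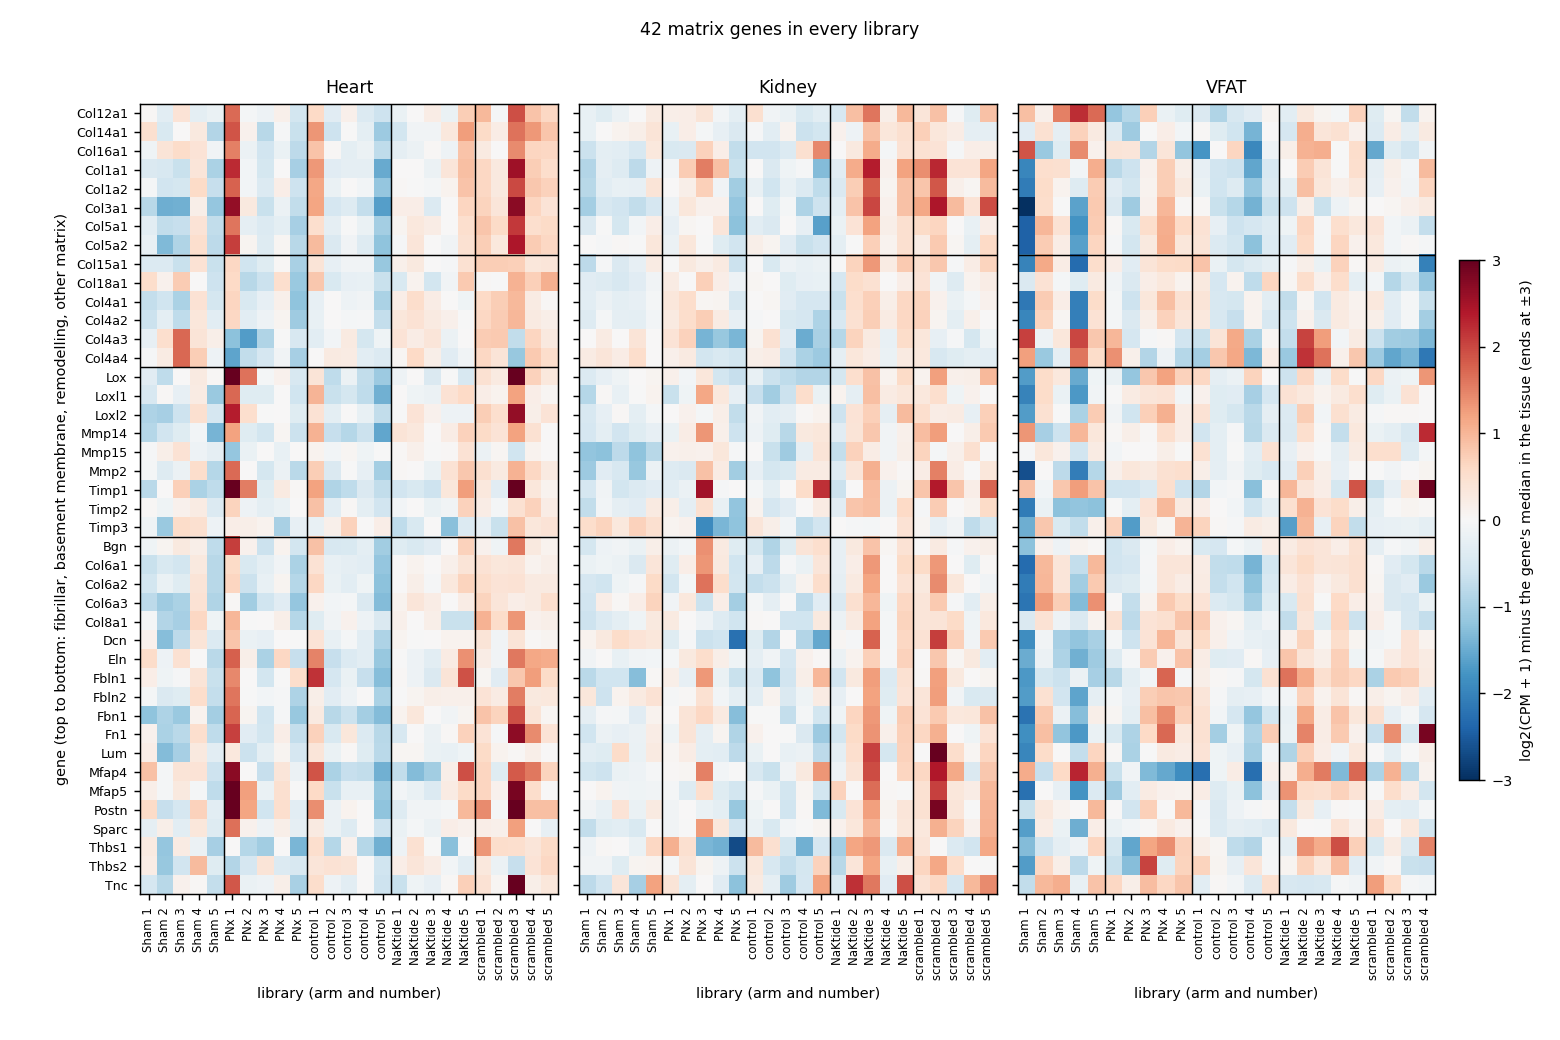
Each row is a member, grouped by class, and each column a library, grouped by tissue and arm. Colour is log2(CPM + 1) minus the gene's median in that tissue, limited to 3 in either direction, and heart PNx 1 and scrambled cells 3 appear as columns high across most fibrillar and remodelling members.

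In the heart the comparison of PNx with Sham asks what loss of kidney tissue does to cardiac matrix, the fibrosis side of uremic cardiomyopathy, the disorder named in the series title. No member passed the test at an adjusted p under 0.05 (0 of 42), against 0.126% of the 15091 genes tested. Higher values stood mainly in 1 of the 5 PNx hearts. At an unadjusted p under 0.05, 7 members were higher and 2 lower (9 of 42), against 15.8% of all genes. DESeq2 called 2 members, Col4a3 and Col4a4, both lower, and limma voom with quality weights called 0. The median log2 fold change of the members was 0.51 (34 higher, 8 lower), while the median of all genes stayed within -0.02 to 0.05 in every comparison within a tissue.

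All 8 fibrillar members were higher in PNx hearts, with a median log2 fold change of 0.83, but none passed. Col3a1 measured 129.8, 83.4, 85.0, 263 and 103 CPM in Sham and 1446, 282, 145, 205 and 138 CPM in PNx. Only PNx 1 and 2 exceeded the highest Sham heart, and the log2 fold change was 1.73 ± 0.63 (SE, adjusted p = 0.201). Col1a1 measured 72.5, 70.8, 62.3, 128 and 50.6 CPM in Sham and 473, 92.9, 68.3, 98.7 and 49.4 CPM in PNx, and only PNx 1 exceeded the highest Sham value (1.02 ± 0.56, adjusted p = 0.372). Col1a2, the partner chain of Col1a1 in type I collagen, measured 113, 79.7, 82.3, 176 and 73.5 CPM in Sham and 406, 112, 89.0, 136 and 77.2 CPM in PNx (0.64 ± 0.44, adjusted p = 0.48). The groups overlapped for all 3 genes, and without PNx 1 and scrambled cells 3 the log2 fold changes were 0.53 for Col3a1, 0.0051 for Col1a1 and -0.025 for Col1a2.

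Basement membrane members did not move as a group (3 higher, 3 lower, median -0.10), and the type IV pairs differed. Col4a3 (chr1:82586921-82722059) measured 2.16, 4.34, 11.4, 3.92 and 3.29 CPM in Sham and 0.599, 0.179, 1.03, 2.74 and 1.68 CPM in PNx. Its neighbour Col4a4 (chr1:82448423-82586849) measured 6.76, 8.47, 25.5, 12.2 and 6.14 CPM in Sham and 1.68, 3.76, 4.62, 6.45 and 3.03 CPM in PNx. For both genes 1 Sham library, Sham 3, was far above the rest and the PNx hearts lay low, with some overlap. The log2 fold changes were -1.89 ± 0.49 (adjusted p = 0.109) and -1.53 ± 0.41 (adjusted p = 0.118), the lowest p among the members. Proximal tubule markers, from a tissue rich in both chains, summed to 28.5, 1189, 3776, 50.8 and 63.9 CPM in the Sham hearts and to 9.53 to 27.1 CPM in the PNx hearts (at least 6 of the 8 markers above 0 in each heart). Without Sham 2 and 3 the log2 fold changes were -1.34 and -1.13.

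The broadly expressed chains Col4a1 and Col4a2 stayed close to Sham. Col4a1 measured 264, 285, 224, 579.6 and 298 CPM in Sham and 681, 316, 363, 480.4 and 186 CPM in PNx (0.30 ± 0.28, adjusted p = 0.631). Col4a2 measured 209, 266, 190.5, 412 and 261 CPM in Sham and 501, 259, 293, 343 and 155 CPM in PNx (0.21 ± 0.24, adjusted p = 0.7). Sham 4 and PNx 1 were the high libraries of their groups for both genes.

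Remodelling members had the widest range between hearts. Timp1, a secreted inhibitor that injury and inflammation induce, measured 0.946, 2.39, 4.55, 0.754 and 0.987 CPM in Sham and 109, 8.78, 1.63, 3.07 and 2.47 CPM in PNx, with a log2 fold change of 3.99 ± 1.34 (adjusted p = 0.178). PNx 1 was the highest heart by far, and PNx 3, 4 and 5 lay within the Sham range. Without PNx 1 and scrambled cells 3 the difference was 1.27 (adjusted p = 0.394). Mmp2, the main gelatinase of fibroblasts, measured 55.6, 44.3, 51.4, 84.3 and 31.9 CPM in Sham and 192, 58.8, 40.2, 51.6 and 33.1 CPM in PNx (0.49 ± 0.39, adjusted p = 0.551). Its groups overlapped, and without those libraries the value was -0.22. Over the 9 remodelling members 7 were higher and 2 lower, with a median of 0.64.

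Among the other matrix genes 16 were higher and 3 lower (median 0.49). Postn, periostin, a product of activated fibroblasts, measured 43.8, 17.6, 20, 47.5 and 23.1 CPM in Sham and 408, 66.9, 18.7, 41.3 and 22.9 CPM in PNx (1.86 ± 0.75, adjusted p = 0.234). Fn1, fibronectin, measured 46.4, 21.5, 23.6, 60.02 and 24.7 CPM in Sham and 178, 33.3, 28.3, 48.7 and 25.2 CPM in PNx (0.82 ± 0.54, adjusted p = 0.461). Again PNx 1 was highest, PNx 2 also exceeded the highest Sham heart for Postn, and the other PNx hearts lay within the Sham range. Without PNx 1 and scrambled cells 3 the log2 fold change of Postn was 0.27 and that of Fn1 -0.081.

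The same libraries stood apart in markers of other cells. The 5 neutrophil markers summed to 1168, 571, 17.2, 3.87 and 3.03 CPM in PNx hearts, to 2.52 to 12.7 in Sham hearts and to 721 in scrambled cells 3. Ly6g, a defining neutrophil marker, was at 0 in every heart given control or NaKtide cells. The 9 macrophage markers summed to 119 to 795 CPM in PNx and 106 to 209 in Sham hearts, and the 10 fibroblast markers to 285 to 1169 and 220.2 to 396, with PNx 1 the highest in each list and all markers of both lists above 0 in all hearts. Beyond leaving out PNx 1 and scrambled cells 3, the part of these cells in the matrix values was not tested.

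**Figure D2:**
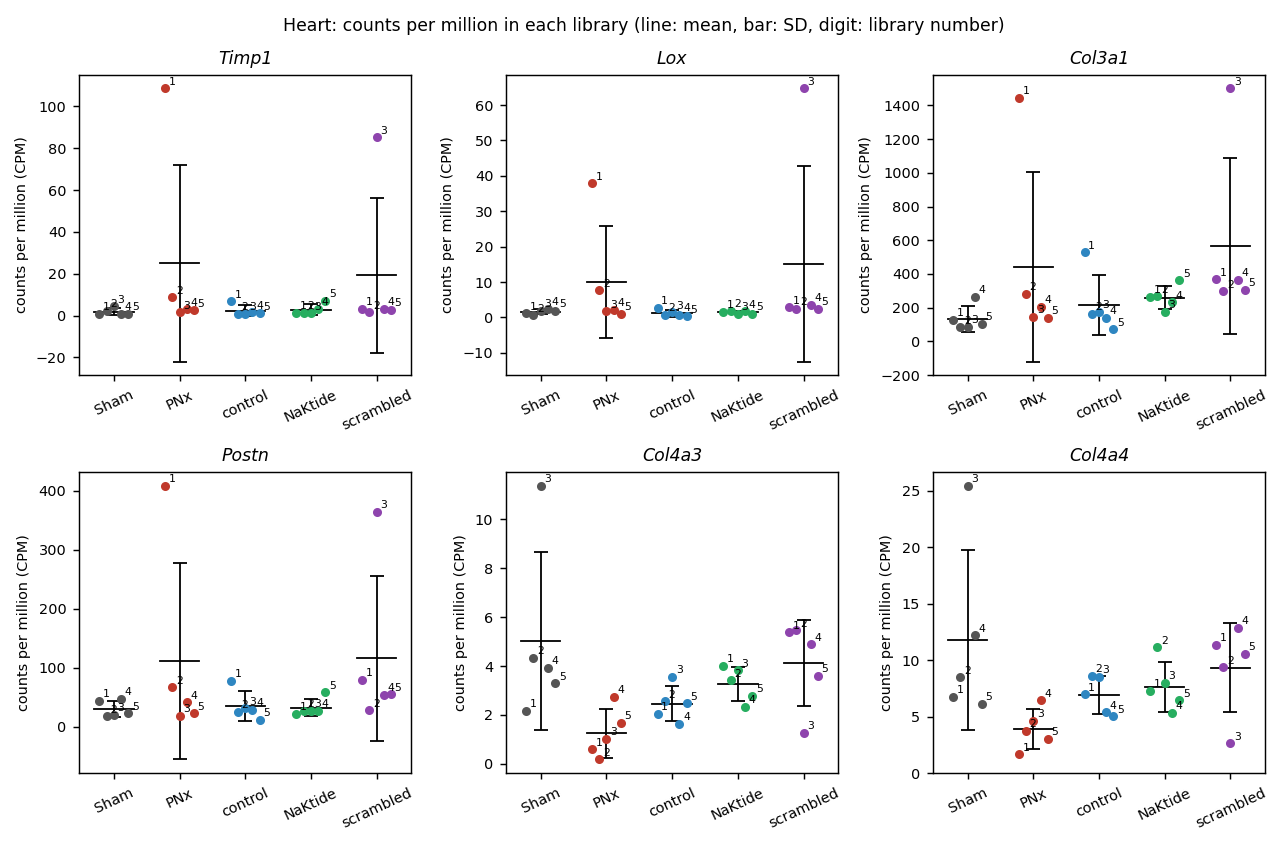
CPM of 6 members in each heart library by arm (points), with the arm's mean (line) and SD (bar). PNx 1 and scrambled cells 3 are the high points for Timp1, Lox, Col3a1 and Postn, while Col4a3 and Col4a4 are highest in Sham 3.

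The cell arms of the heart were compared 4 ways, and each comparison shares an arm with another, so they are not independent. Control cells against PNx without cells asks what the transfer itself does. No member passed (0 of 42, against 0% of genes; 0 by DESeq2 and 0 by limma voom). At an unadjusted p under 0.05, 2 members were higher and 7 lower with control cells, against 8.36% of all genes. The members' median was -0.37 (10 higher, 32 lower), and all 8 fibrillar members were lower (median -0.48), while basement membrane members split 3 and 3. The lowest p belonged to Mfap5 and Lox. Mfap5 measured 171, 33.2, 11.6, 19.2 and 13.5 CPM in PNx hearts and 21.1, 8.21, 11.4, 11.4 and 5.58 CPM with control cells (-2.0996 ± 0.65, adjusted p = 0.584). Lox, lysyl oxidase, measured 37.9, 7.71, 1.71, 2.097 and 1.01 CPM and 2.70, 0.673, 1.49, 0.701 and 0.319 CPM (-3.07 ± 1.01, adjusted p = 0.584). For both genes PNx 1 and then PNx 2 were the high libraries, and the other PNx hearts overlapped the treated ones. PNx 1 was also the highest PNx heart for each of the 8 fibrillar members.

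NaKtide cells against PNx without cells also gave no called member (0 of 42, against 0% of genes; 0 by DESeq2, 2 by limma voom). At an unadjusted p under 0.05, 8 members were counted, against 8.28% of genes. All 8 fibrillar members were lower (median -0.32) and all 6 basement membrane members higher (median 0.33). PNx 1 was the highest PNx heart for each of the 8 fibrillar members. Col1a1 measured 473 CPM in PNx 1 and 92.9, 68.3, 98.7 and 49.4 CPM in the other PNx hearts. With NaKtide cells Col1a1 measured 99.1, 99.7, 87.2, 126 and 184 CPM. The part of PNx 1 in the class medians was not tested. Col4a3, which was low in PNx hearts, measured 4.01, 3.42, 3.82, 2.32 and 2.77 CPM with NaKtide cells (1.39 ± 0.47, adjusted p = 0.545). Mfap5 measured 12.8, 11.7, 9.90, 16.4 and 20.8 CPM with NaKtide cells (-1.79 ± 0.64, adjusted p = 0.565). The PNx values overlapped these for both genes. Remodelling members had 3 higher and 6 lower (median -0.22).

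NaKtide cells against scrambled cells compares the peptide with its sequence control. None of the 42 members passed (against 0% of genes; 0 by DESeq2 and 0 by limma voom), and 11 had an unadjusted p under 0.05, against 5.98% of genes. With NaKtide cells 40 members were lower and 2 higher (median -0.59): all 8 fibrillar members (median -0.90), all 6 of the basement membrane (median -0.37) and 8 of 9 remodelling members (median -0.31). Lox measured 1.55, 1.86, 1.07, 1.78 and 1.03 CPM with NaKtide cells and 2.87, 2.42, 64.8, 3.55 and 2.52 CPM with scrambled cells (-3.36 ± 1.001, adjusted p = 0.721), and its groups did not overlap. Tnc, tenascin C, a glycoprotein of injured tissue, measured 0.365, 0.977, 0.835, 1.23 and 2.56 and 1.91, 1.26, 37.6, 1.44 and 1.73 CPM (-2.86 ± 0.92, adjusted p = 0.721). In both genes scrambled cells 3 was far above the rest. Scrambled cells 3 was also the highest scrambled heart for every fibrillar member. Col3a1 measured 1502.5 CPM there and 368, 296, 364 and 307 CPM in the other scrambled hearts. With NaKtide cells Col3a1 measured 263, 266, 174, 231 and 363 CPM. When each sample was left out in turn, Lox ran from -3.65 to -0.96 and Tnc from -3.37 to -0.41. The part of scrambled cells 3 in the class medians was not tested.

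Scrambled cells against control cells, neither of which holds the active peptide, had the widest shift of the heart: 41 members were higher with scrambled cells and 1 lower (median 0.83). The medians were 1.18 for fibrillar, 0.75 for basement membrane and 0.66 for remodelling members. No member passed with edgeR (0 of 42, against 0% of genes) or DESeq2 (0), while limma voom called 15, and 20 members had an unadjusted p under 0.05, against 7.28% of genes. Lox had the lowest p (3.65 ± 1.01, adjusted p = 0.67), with 2.70, 0.673, 1.49, 0.701 and 0.319 CPM with control cells beside the scrambled values above. Fbn1, fibrillin 1, the backbone of microfibrils, measured 63.3, 29.0, 33.2, 25.2 and 20.5 CPM with control cells and 96.1, 83.9, 203, 68.4 and 54.8 CPM with scrambled cells (1.56 ± 0.44, adjusted p = 0.67). All values with control cells except that of library 1 lay below the scrambled group for Lox and Fbn1. Scrambled cells 3 was the highest scrambled heart for both genes and for every fibrillar member. When each sample was left out in turn, Lox ran from 1.25 to 4.18 and Fbn1 from 1.15 to 1.90. The part of scrambled cells 3 in the class medians was not tested. The index of RNA length described below for the kidney ran from -1.14 to -0.864 with scrambled cells and from -1.06 to -0.541 with control cells. With that index as a covariate still no member passed, and Lox stood at 3.99 (adjusted p = 0.34) and Fbn1 at 1.70 (adjusted p = 0.34).

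In the kidney PNx against Sham compares operated with intact kidneys. Mmp15, Col18a1 and Timp1 rose and Timp3 fell (4 of 42 members, against 16.8% of the 16307 genes tested). DESeq2 called 5 and limma voom 5. The members' median log2 fold change was 0.22 (29 higher, 13 lower). By class, 1 of 6 basement membrane members rose (median 0.32), 2 of 9 remodelling members rose and 1 fell (median 0.42), and none of the 8 fibrillar (median 0.22) or the 19 other members (median 0.075) passed.

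Mmp15 (chr8:95352268-95375080) measured 2.27, 2.13, 3.26, 2.19 and 3.16 CPM in Sham and 7.02, 7.25, 7.10, 8.28 and 6.17 CPM in PNx. Every PNx kidney lay above every Sham kidney, and the log2 fold change was 1.45 ± 0.28 (adjusted p = 0.00698). It remained called when any 1 library was left out. Even so its PNx level stayed far below that of the heart, since the Sham heart to Sham kidney log2 difference was -5.85 when read as kidney minus heart. Mmp15 was the kidney member with the lowest adjusted p.

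Timp3 (chr10:86300372-86349506) measured 809, 897, 701, 912 and 786 CPM in Sham and 598, 614, 149, 216 and 243 CPM in PNx. The groups did not overlap, PNx 3, 4 and 5 were lowest, and the log2 fold change was -1.17 ± 0.30 (adjusted p = 0.0216). Timp1 (chrX:20870166-20874735) was near the limit of detection: Sham kidneys had 1, 4, 1, 1 and 2 reads and PNx kidneys 2, 7, 60, 4 and 4, or 0.0946, 0.448, 0.0693, 0.168 and 0.234 CPM in Sham and 0.260, 0.373, 7.89, 0.518 and 0.561 CPM in PNx. PNx 3 alone carried its rise of 3.20 ± 1.08 (adjusted p = 0.0462), which was 1.07 without that library (adjusted p = 0.475). Mmp2 measured 2.84, 5.38, 4.78, 2.69 and 6.21 CPM in Sham and 5.20, 5.06, 13.9, 8.67 and 2.94 CPM in PNx, with overlap (0.69 ± 0.39, adjusted p = 0.167).

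Col18a1 (chr10:77052178-77166548), the basement membrane collagen whose cleavage releases endostatin, measured 144, 141, 132, 146 and 170.0 CPM in Sham and 219, 185, 303, 209.9 and 164 CPM in PNx. PNx 5 lay within the Sham range and the log2 fold change was 0.56 ± 0.19 (adjusted p = 0.0446). Col4a1 measured 143, 159, 148, 153 and 172 CPM in Sham and 227, 260.2, 188, 191 and 128 CPM in PNx (0.36 ± 0.22, adjusted p = 0.207). Col4a2 measured 97.2, 122, 104, 104 and 121 CPM in Sham and 152, 182, 213, 152 and 107 CPM in PNx (0.56 ± 0.22, adjusted p = 0.0684). Both overlapped through PNx 5, and neither passed.

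No fibrillar collagen passed in the main edgeR fit of the kidney. Col1a1 measured 8.70, 13.7, 12.5, 9.25 and 14.99 CPM in Sham and 15.6, 28.8, 50.5, 31.8 and 10.1 CPM in PNx (1.21 ± 0.45, adjusted p = 0.0589). It did pass with DESeq2 (1.18, adjusted p = 0.0389) and with the second library of Sham 3 kept separate (1.18, adjusted p = 0.0423). It also passed without PNx 1 (1.32, adjusted p = 0.036). In all it passed in 1 of 10 leave-one-out fits and in 2 of 10 other alternatives. Col1a2 measured 19.95, 28.8, 31.0, 30.1 and 47.2 CPM in Sham and 36.2, 40.9, 59.6, 33.4 and 17.1 CPM in PNx (0.25 ± 0.37, adjusted p = 0.614). Col3a1 measured 13.6, 20.4, 19.1, 17.0 and 20.1 CPM in Sham and 26.0, 36.6, 31.4, 31.6 and 12.3 CPM in PNx (0.62 ± 0.38, adjusted p = 0.211). PNx 5 was the lowest PNx kidney for all 3 genes, and each overlapped between groups. Of the glycoproteins, Fn1 measured 18.0, 24.4, 23.0, 24.4 and 32.4 CPM in Sham and 25.2, 36.6, 22.9, 29.1 and 14.3 CPM in PNx (0.075 ± 0.30, adjusted p = 0.869). Postn measured 1.32, 1.12, 2.29, 1.18 and 1.99 CPM in Sham and 1.30, 1.49, 1.18, 1.04 and 0.140 CPM in PNx (-0.58 ± 0.61, adjusted p = 0.471). These too overlapped.

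The PNx kidneys were not alike in RNA or in cells. An index of RNA length (mean log2 CPM of the shortest genes minus that of the longest, by outer quartiles) was -0.992, -1.08, 0.162, -0.00209 and 0.169 in PNx kidneys and -1.11 to -0.926 in Sham kidneys. The 5 neutrophil markers summed to 3.51, 5.17, 2579.7, 19.0 and 8.55 CPM in PNx and 1.29 to 2.74 in Sham kidneys (3 to 5 of 5 above 0), and the 9 macrophage markers, all above 0, to 83.8 to 777 and 89.3 to 117. The 8 proximal tubule markers, all above 0, summed to 9266 to 22498 CPM in PNx and 19044 to 23471 in Sham kidneys. When the index of RNA length entered the fit as a covariate, 5 members passed. Mmp15 (1.59, adjusted p = 0.0047), Col18a1 (0.74, adjusted p = 0.0318) and Timp3 (-0.78) kept their calls, and Timp1 lost its call (1.99, adjusted p = 0.39). Col4a1 (0.76, adjusted p = 0.00531) and Col4a2 (0.89, adjusted p = 0.0131) gained one. The part of the other cell types in the 4 calls was not tested. When each of the 10 Sham and PNx samples was left out in turn, Timp3 lost its call in 4 fits and Col18a1 and Timp1 in 8 each, with log2 fold changes of -1.45 to -0.98, 0.39 to 0.62 and 1.07 to 3.71. Without PNx 3, 4 and 5 and control cells 4 and 5, no member was called, and the log2 fold changes were 1.43 for Mmp15 (adjusted p = 0.0663), -0.44 for Timp3 (adjusted p = 0.51), 0.46 for Col18a1 and 0.77 for Timp1.

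**Figure D3:**
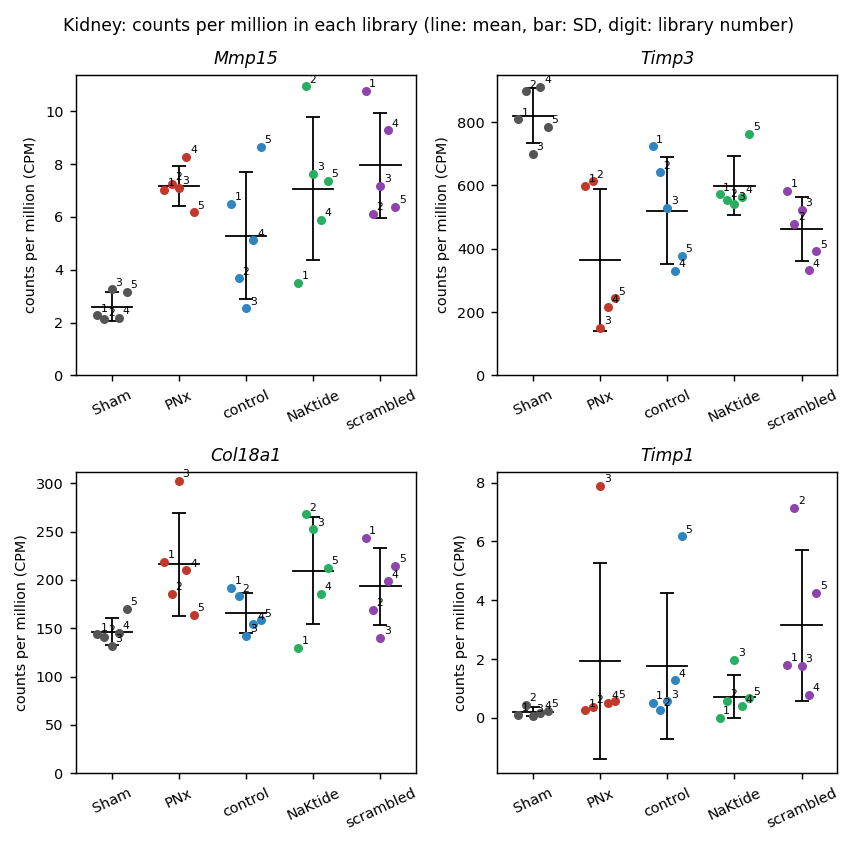
CPM of the 4 members that passed in the kidney PNx against Sham comparison, for each library by arm (points), with mean (line) and SD (bar). Mmp15 is separated between Sham and PNx, Timp3 is lowest in PNx 3, 4 and 5, and the Timp1 point at 7.89 CPM is PNx 3.

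None of the cell arms of the kidney had a called member with edgeR. With control cells against PNx the count was 0 of 42 (against 0% of genes; 0 by DESeq2, 1 by limma voom), and 3 members had an unadjusted p under 0.05, against 6.43% of genes. The members' median was -0.23 (7 higher, 35 lower), with all 6 basement membrane members lower (median -0.32). Col4a2 measured 124, 129, 92.7, 88.7 and 66.7 CPM with control cells, beside the PNx values above (-0.67 ± 0.22, adjusted p = 0.587). Col1a1 measured 16.7, 12.1, 15.1, 16.4 and 6.17 CPM (-0.97 ± 0.46, adjusted p = 0.767). Both genes overlapped PNx. For remodelling members the median was -0.57 and for fibrillar members -0.20.

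With NaKtide cells against PNx the members leaned the other way: 36 were higher and 6 lower (median 0.53). The count called was 0 of 42 (against 0% of genes; 0 by DESeq2, 16 by limma voom), and 13 had an unadjusted p under 0.05, against 19.1% of genes. All 8 fibrillar members were higher (median 0.63), as were 5 of 6 of the basement membrane (median 0.25) and 6 of 9 remodelling members (median 0.37). Dcn measured 12.4, 15.9, 9.99, 10.5 and 2.66 CPM in PNx kidneys and 17.0, 15.7, 57.8, 15.6 and 25.3 CPM with NaKtide cells (1.34 ± 0.42, adjusted p = 0.258). Tnc measured 5.07, 2.83, 3.68, 2.72 and 0.981 and 2.43, 20.3, 13.1, 2.71 and 16.8 CPM (1.87 ± 0.61, adjusted p = 0.258). Both overlapped. The RNA length index was -1.21 to -0.169 with NaKtide cells, so the PNx kidneys 3, 4 and 5 stood outside that range. With the index as a covariate no member passed, and Dcn stood at 1.01 (adjusted p = 0.735) and Tnc at 1.27 (adjusted p = 0.773).

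NaKtide against scrambled cells showed the least movement of the kidney's members, with 24 higher and 18 lower (median 0.057). None of 42 was called (against 0% of genes; 0 by DESeq2, 6 by limma voom), and 2 had an unadjusted p under 0.05, against 5.02% of genes. These were Timp1 and Postn. Timp1 measured 0, 0.583, 1.97, 0.386 and 0.657 CPM with NaKtide cells and 1.79, 7.15, 1.77, 0.781 and 4.26 CPM with scrambled cells (-2.04 ± 0.84, adjusted p = 0.879). Postn measured 0.809, 2.33, 4.84, 1.64 and 2.19 and 2.42, 16.9, 2.19, 1.46 and 4.09 CPM (-1.16 ± 0.54, adjusted p = 0.879). The groups overlapped for both genes. By class the medians were 0.049, 0.22 and -0.16 for fibrillar, basement membrane and remodelling members.

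Scrambled against control cells had 41 members higher and 1 lower (median 0.69). No member passed with edgeR (0 of 42, against 0.0123% of genes), while DESeq2 called 3 and limma voom 21, and 20 had an unadjusted p under 0.05, against 10.7% of genes. All 8 fibrillar (median 0.62) and all 6 basement membrane members (median 0.31) were higher, with 8 of 9 remodelling members (median 0.73). Col3a1 measured 28.9, 22.1, 27.9, 14.8 and 18.5 CPM with control cells and 65.9, 159, 57.0, 38.8 and 114 CPM with scrambled cells, without overlap (1.92 ± 0.39, adjusted p = 0.147). Lox had 7, 2, 1, 0 and 0 reads with control cells and 11, 29, 10, 11 and 31 with scrambled cells, or 0.591, 0.179, 0.0939, 0 and 0 CPM and 0.987, 3.29, 1.04, 1.07 and 2.64 CPM, also without overlap (2.79 ± 0.65, adjusted p = 0.177). Control cells 4 and 5, where Lox had no read, held only 4811672 and 1241590 counts, against 8362228 to 10841221 with scrambled cells. Their RNA length index was 0.247 and 0.256, against -0.875 to -0.167 with scrambled cells. Without these libraries and PNx 3, 4 and 5, Lox stood at 2.53 (adjusted p = 0.0499). The 9 macrophage markers summed to 164, 377, 156, 147 and 311 CPM with scrambled cells and to 131, 103, 93.5, 204 and 393 CPM with control cells, and their part was not tested. When the RNA length index entered the fit, 3 members passed, among them Col3a1 (1.94, adjusted p = 0.0127) and Lox (3.11, adjusted p = 0.0214).

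In visceral fat PNx against Sham had the most called members of the within-tissue comparisons: Timp2, Eln, Dcn, Mmp2 and Fbln2 rose and Col12a1 and Mfap4 fell (7 of 42, against 13% of the 17552 genes tested). DESeq2 called 8 and limma voom 9. The members' median log2 fold change was 0.28 (28 higher, 14 lower). Fibrillar members had 1 that fell and a median of -0.10, basement membrane members had none called and a median of 0.13, and remodelling members had 2 that rose and a median of 0.46. Among the other 19 members 3 rose and 1 fell (median 0.48).

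These values stand beside a difference in what the Sham samples contained. The 7 epididymis markers, genes of the duct next to the male gonadal fat pad, summed to 11254, 105, 4737, 9341 and 4264 CPM in Sham fat, with all 7 above 0 in every Sham library, and to 1.97, 32.9, 2.27, 7.60 and 1.57 CPM in PNx fat (1 to 7 above 0). The 7 adipocyte markers summed to 3715, 19413, 11203, 2306 and 9328 CPM in Sham and 14129, 15485, 17687, 15572 and 17654 CPM in PNx fat. The 10 fibroblast markers summed to 292, 551, 365, 266 and 333 and 469, 560.3, 669, 773 and 702 CPM, and the 9 macrophage markers to 221 to 401 and 387 to 777. Sham 1 and 4 were lowest in adipocyte and highest in epididymis markers, and Sham 2 was nearest to the PNx fat in both. The part of this tissue mix in the calls was examined only by leaving out Sham libraries, as given below.

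The lowest adjusted p belonged to a remodelling member, Timp2, while Eln, Col12a1 and Dcn came before the other called remodelling member, Mmp2. Timp2 (chr11:118301069-118355740), an inhibitor that also helps activate Mmp2 at the cell surface, measured 63.6, 238, 117, 120.1 and 116 CPM in Sham and 273, 225, 366, 538 and 329.8 CPM in PNx (1.40 ± 0.28, adjusted p = 0.00216). Only Sham 2 reached the PNx range. Mmp2 (chr8:92827291-92853420) measured 9.76, 66.8, 37.7, 14.8 and 36.2 CPM in Sham and 73.7, 83.2, 79.3, 90.9 and 94.2 CPM in PNx (1.35 ± 0.33, adjusted p = 0.0104), and its groups did not overlap, with the narrowest spread in PNx. Timp1 went the other way without passing, at 4.07, 1.58, 3.84, 5.53 and 3.98 CPM in Sham and 0.822, 0.830, 1.06, 2.89 and 0.783 CPM in PNx (-1.58 ± 0.78, adjusted p = 0.2), with overlap through Sham 2 and PNx 4.

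Of the elastic fibre genes, elastin (Eln, chr5:134702593-134747323) measured 14.2, 36.8, 21.4, 14.8 and 19.5 CPM in Sham and 31.6, 40.4, 71.4, 46.1 and 76.2 CPM in PNx (1.32 ± 0.27, adjusted p = 0.00278). Fbln2 (chr6:91212455-91272540), fibulin 2, which links elastic fibres to basement membrane, measured 24.9, 113, 55.0, 26.6 and 67.7 CPM in Sham and 78.3, 68.7, 138, 148 and 144 CPM in PNx (1.01 ± 0.32, adjusted p = 0.0426). Mfap4 (chr11:61485431-61488900), another microfibril-associated glycoprotein, measured 10.9, 2.45, 7.36, 26.2 and 10.7 CPM in Sham and 2.47, 4.15, 1.21, 0.912 and 0.522 CPM in PNx (-2.61 ± 0.86, adjusted p = 0.0484). Eln and Fbln2 were thus higher and Mfap4 lower in PNx fat, and for all 3 genes Sham 2 lay within the PNx range. Decorin (Dcn, chr10:97479609-97518143) measured 140.1, 472, 255, 224 and 257 CPM in Sham and 488, 333, 679, 1020.0 and 663 CPM in PNx (1.24 ± 0.29, adjusted p = 0.00755), and again Sham 2 was the overlapping library.

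Among fibrillar members only Col12a1 (chr9:79598991-79718831), which decorates type I fibrils, was called: it measured 7.97, 4.38, 12.7, 21.4 and 14.8 CPM in Sham and 1.15, 1.66, 6.96, 3.19 and 2.74 CPM in PNx (-1.96 ± 0.44, adjusted p = 0.00596). Sham 2 had the lowest Sham value and PNx 3 the highest PNx value. Col1a1 measured 33.7, 189.5, 187, 126 and 285 CPM in Sham and 76.8, 86.5, 146, 226 and 152 CPM in PNx (-0.26 ± 0.40, adjusted p = 0.722). Col1a2 measured 54.7, 351, 255, 183 and 404 CPM in Sham and 188, 161, 258, 401 and 292 CPM in PNx (0.059 ± 0.37, adjusted p = 0.942). Col3a1 measured 61.5, 922, 641, 211 and 1101 CPM in Sham and 472, 306, 705, 1275 and 659 CPM in PNx (0.22 ± 0.49, adjusted p = 0.821). Sham 1 was the lowest library for these 3 collagens, and their groups overlapped.

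The basement membrane chains Col4a1 and Col4a2 did not pass. Col4a1 measured 133, 1002, 681, 143 and 863 CPM in Sham and 572, 386, 743, 1113 and 806 CPM in PNx (0.36 ± 0.44, adjusted p = 0.643). Col4a2 measured 113, 702, 455, 106 and 589 CPM in Sham and 421, 326, 496, 707 and 568 CPM in PNx (0.36 ± 0.41, adjusted p = 0.619). Sham 1 and 4 were the low libraries of both. Fn1 measured 42.5, 294, 68.2, 46.7 and 136 CPM in Sham and 113, 81.4, 237, 517 and 192 CPM in PNx (0.96 ± 0.66, adjusted p = 0.377). Postn measured 39.7, 79.6, 68.6, 64.2 and 125 CPM in Sham and 64.5, 42.1, 105, 63.7 and 126 CPM in PNx (0.088 ± 0.28, adjusted p = 0.878). Both overlapped between groups.

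Without Sham 1 and 4 the calls of Timp2, Col12a1 and Mmp2 remained (3 members). Dcn was then at 0.95 (adjusted p = 0.101), Eln at 1.04 (0.0542), Fbln2 at 0.55 (0.34) and Mfap4 at -1.85 (0.361). When each of the 10 samples was left out in turn, Fbln2 lost its call in 7 fits (0.81 to 1.40) and Mfap4 in 8 (-3.18 to -2.05), and the other 5 members kept theirs. With only the Sham and PNx arms in the fit none of the 7 was called, at adjusted p of 0.0595 (Eln) to 0.191 (Fbln2), while Timp2 stood at 1.37, Mmp2 at 1.33 and Col12a1 at -2.02. Without the fat libraries over 100 CPM of proximal tubule markers Timp2, Eln and Dcn were called. Col12a1 was then at -1.56 (adjusted p = 0.081), Mmp2 at 1.43 (0.0625), Fbln2 at 1.27 (0.0678) and Mfap4 at -3.89 (0.057). With Sham 2 as the only Sham library, which is then assumed to vary like the other groups, no member was called and Timp2 stood at 0.54, Mmp2 at 0.34 and Col12a1 at -0.49.

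**Figure D4:**
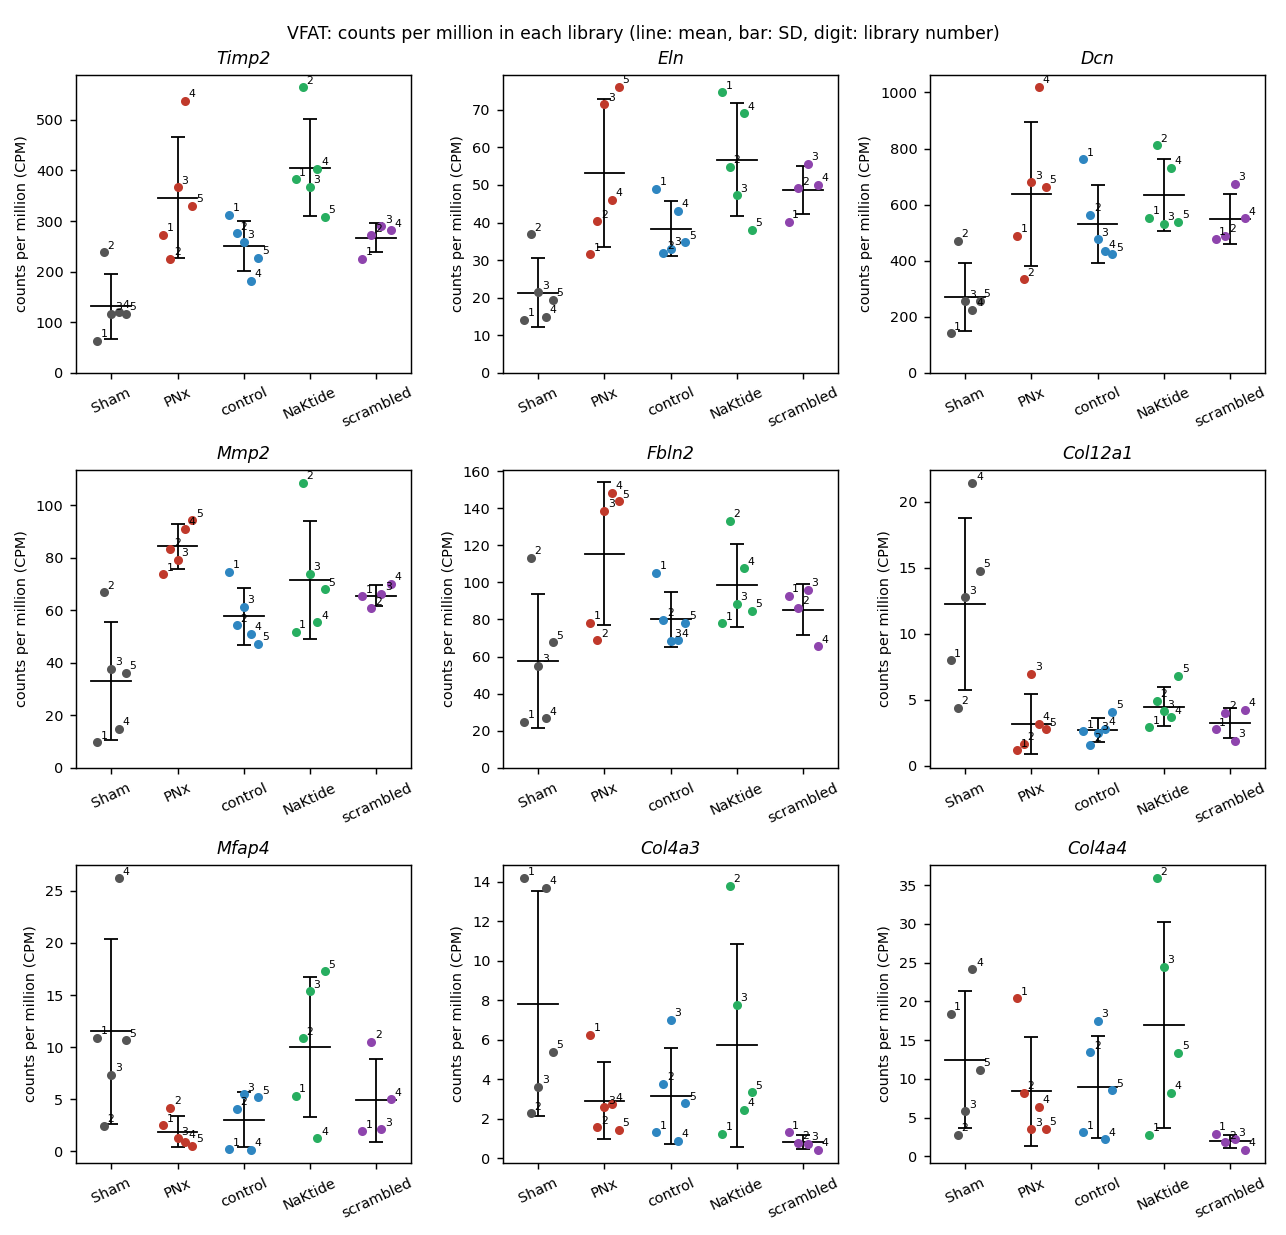
CPM of 9 members in each visceral fat library by arm (points), with mean (line) and SD (bar). Mmp2 is separated between Sham and PNx, Col12a1 and Mfap4 are highest in Sham, and Col4a3 and Col4a4 are spread widely with NaKtide cells and low with scrambled cells.

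With control cells against PNx in fat, 37 members were lower and 5 higher (median -0.41), including all 8 fibrillar members (median -0.66). None of 42 passed (against 0% of genes; 0 by DESeq2 and 0 by limma voom), and 2 had an unadjusted p under 0.05, against 2.52% of genes. Tnc measured 6.58, 4.57, 8.33, 6.54 and 7.70 CPM in PNx fat and 2.93, 3.97, 3.63, 2.66 and 5.81 CPM with control cells (-0.81 ± 0.37, adjusted p = 1). Fbn1 measured 47.2, 36.3, 85.1, 120.0 and 74.4 and 62.4, 42.3, 31.6, 19.6 and 30.3 CPM (-0.96 ± 0.45, adjusted p = 1). Both overlapped. Remodelling members had a median of -0.46 (1 higher, 8 lower) and basement membrane members of -0.16.

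With NaKtide cells against PNx the members were divided, 22 higher and 20 lower (median 0.079). None of 42 passed (against 0% of genes; 0 by DESeq2, 6 by limma voom), and 4 had an unadjusted p under 0.05, against 3.71% of genes. Tnc measured 2.48, 2.46, 2.50, 3.81 and 3.56 CPM with NaKtide cells, below every PNx sample (-1.19 ± 0.38, adjusted p = 0.969). Mfap4 measured 5.29, 10.8, 15.4, 1.22 and 17.3 CPM (2.41 ± 0.85, adjusted p = 0.969). The Mfap4 value of NaKtide cells 4 lay within the PNx range. Fibrillar, basement membrane and remodelling medians were 0.27, 0.022 and -0.13.

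NaKtide against scrambled cells gave 1 called member in fat, Col4a4, which rose (1 of 42, against 2.36% of genes). DESeq2 called 3 and limma voom 2. Col4a4 measured 2.81, 35.9, 24.5, 8.23 and 13.4 CPM with NaKtide cells and 2.88, 1.82, 2.18 and 0.876 CPM with scrambled cells, a log2 fold change of 3.11 ± 0.80 (adjusted p = 0.0403). Its head-to-head neighbour Col4a3 measured 1.24, 13.8, 7.76, 2.44 and 3.34 and 1.32, 0.778, 0.744 and 0.438 CPM (2.79 ± 0.76, adjusted p = 0.054). NaKtide cells 2 and 3 were the high libraries of both genes, and NaKtide cells 1 lay within the scrambled range. Leaving out each of the 9 samples in turn ended the Col4a4 call in 7 fits (2.64 to 3.39). The members' median was 0.29 (35 higher, 7 lower), and all 6 basement membrane members were higher (median 0.65), with medians of 0.28 for fibrillar and 0.13 for remodelling members.

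Kidney transcripts moved with this result. The 8 proximal tubule markers summed to 3.06, 628, 359.7, 11.9 and 122 CPM in the NaKtide fat samples and to 0.959, 4.80, 3.72 and 28.5 CPM in the scrambled ones, with 3 to 8 of 8 above 0 in each arm. Without the fat libraries over 100 CPM of these markers, Col4a4 was at 1.48 (adjusted p = 0.769) and no member was called. The scrambled fat samples also held skeletal muscle, whose 6 markers summed to 4043, 38363, 514 and 25301 CPM against 23.5 to 69.0 with NaKtide cells, and pancreas, whose 5 acinar markers summed to 2.04, 2938, 14310.0 and 393 against 0.152 to 2.98 CPM. The part of muscle and pancreas was not tested. Leaving out scrambled cells 2, 3 and 4 cannot test it, since the single scrambled sample left also held muscle markers (4043 CPM). Col4a4 was then at 2.58.

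Scrambled against control cells in fat had no called member (0 of 42, against 2.41% of genes; 1 by DESeq2, 0 by limma voom). At an unadjusted p under 0.05, 4 members were higher and 3 lower, against 15.7% of genes. All 6 basement membrane members were lower with scrambled cells (median -0.48), while 7 of 8 fibrillar (median 0.39) and 8 of 9 remodelling members (median 0.27) were higher. Timp1 measured 0.488, 1.59, 1.69, 0.148 and 1.81 CPM with control cells and 0.719, 1.30, 2.43 and 19.9 CPM with scrambled cells (2.34 ± 0.81, adjusted p = 0.137). Col4a4 measured 3.09, 13.4, 17.5, 2.22 and 8.54 CPM with control cells, beside the scrambled values above (-2.19 ± 0.78, adjusted p = 0.145). The high Timp1 value was scrambled cells 4, where neutrophil markers summed to 314 CPM and macrophage markers to 2807 CPM, and without scrambled cells 2, 3 and 4 the Timp1 value was -0.72.

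Whether PNx acted differently between tissues was tested as a difference of the PNx minus Sham effects in a joint fit of all 15 groups, so each tissue's Sham and PNx samples serve in 2 of the 3 contrasts. Between kidney and heart 2 members differed (against 12% of 19180 genes): Mmp15, with the effect higher in the kidney by 1.67 ± 0.33 on the log2 scale (adjusted p = 0.00332), and Dcn, lower by 1.43 ± 0.50 (adjusted p = 0.048). Between fat and heart 4 differed (against 9.41%): Col12a1 (-3.08 ± 0.77, adjusted p = 0.0061), Timp1 (-5.45 ± 1.46, 0.0105), Timp2 (1.35 ± 0.38, 0.016) and Mfap4 (-3.36 ± 1.10, 0.0408). Between fat and kidney 6 differed (against 11.7%). Dcn differed by 2.29 ± 0.50 (adjusted p = 0.00103), Mmp15 by -1.42 ± 0.33 (0.00209), Timp2 by 1.37 ± 0.38 (0.0121), Mfap4 by -4.05 ± 1.26 (0.0261), Col12a1 by -2.13 ± 0.66 (0.0264) and Timp3 by 1.65 ± 0.54 (0.0354).

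Several of these calls depended on which libraries were included. Each fit given here leaves out several libraries at once, so the part of any single library was not tested by it. Without heart PNx 1 and scrambled cells 3 the fat and heart contrast had 2 members called, both with the effect higher in fat, so Col12a1, Timp1 and Mfap4 were no longer called. Without fat Sham 1 and 4 it had 2, both with the effect lower in fat, so Timp2 was not called. The kidney and heart contrast had 1 call, higher in the kidney, without heart PNx 1 and scrambled cells 3, so Dcn was not called. When heart Sham 2 and 3, the hearts high in atrial transcripts, kidney PNx 3, 4 and 5 and kidney control cells 4 and 5 were omitted, it had 0 and the fat and kidney contrast 3. The latter had 2 without fat Sham 1 and 4.

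The 3 inhibitors had unlike values across the tissues, most of them not called. Timp1 had log2 fold changes of 3.99 in the heart, 3.20 in the kidney and -1.58 in fat, Timp2 of 0.059, 0.10 and 1.40, and Timp3 of -0.13, -1.17 and 0.46. Timp1 passed in the kidney through PNx 3, Timp2 in fat, and Timp3 in the kidney. Timp1 did not pass in the heart or in fat. Its heart value was 1.27 without PNx 1 and scrambled cells 3, and its kidney value 1.07 without PNx 3. Dcn, higher in PNx fat, had a log2 fold change of -1.01 in the kidney (adjusted p = 0.079), where it measured 17.6, 20.3, 24.2, 22.04 and 20.7 CPM in Sham and 12.4, 15.9, 9.99, 10.5 and 2.66 CPM in PNx without overlap. The fibrillar class had medians of 0.83, 0.22 and -0.10 in heart, kidney and fat, the basement membrane class of -0.10, 0.32 and 0.13, and the remodelling class of 0.64, 0.42 and 0.46. These class values were not tested against each other.

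The members not described singly are covered by their role, with the median log2 fold change of PNx against Sham in heart, kidney and fat in that order. Collagen VI, the beaded filament that anchors cells in muscle and fat (Col6a1, Col6a2 and Col6a3), had 0.15 (2 higher, 1 lower), 0.46 (2 higher, 1 lower) and -0.30 (0 higher, 3 lower). The fibril-associated collagens had 0.54 (3 higher, 0 lower), 0.22 (2 higher, 1 lower) and -0.88 (0 higher, 3 lower). The crosslinking enzymes, which bind collagen and elastin chains into insoluble fibres, had 1.33 (3 higher, 0 lower), 0.16 (3 higher, 0 lower) and 0.60 (3 higher, 0 lower). The small proteoglycans, which space collagen fibrils, had 0.40 (3 higher, 0 lower), -0.48 (1 higher, 2 lower) and 0.016 (2 higher, 1 lower). The adhesive and matricellular glycoproteins, which signal to cells more than they bear load, had 0.69 (4 higher, 2 lower), -0.11 (3 higher, 3 lower) and 0.61 (6 higher, 0 lower). The elastic fibre and microfibril genes had 0.67 (6 higher, 0 lower), 0.31 (4 higher, 2 lower) and 0.94 (5 higher, 1 lower). PNx 1 was the highest heart of its group for Lox, Postn and Fn1, as given above. The single log2 fold changes of all 42 members ran from -1.89 to 3.99 in the heart, -1.17 to 3.20 in the kidney and -2.61 to 1.40 in fat.

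**Figure D5:**
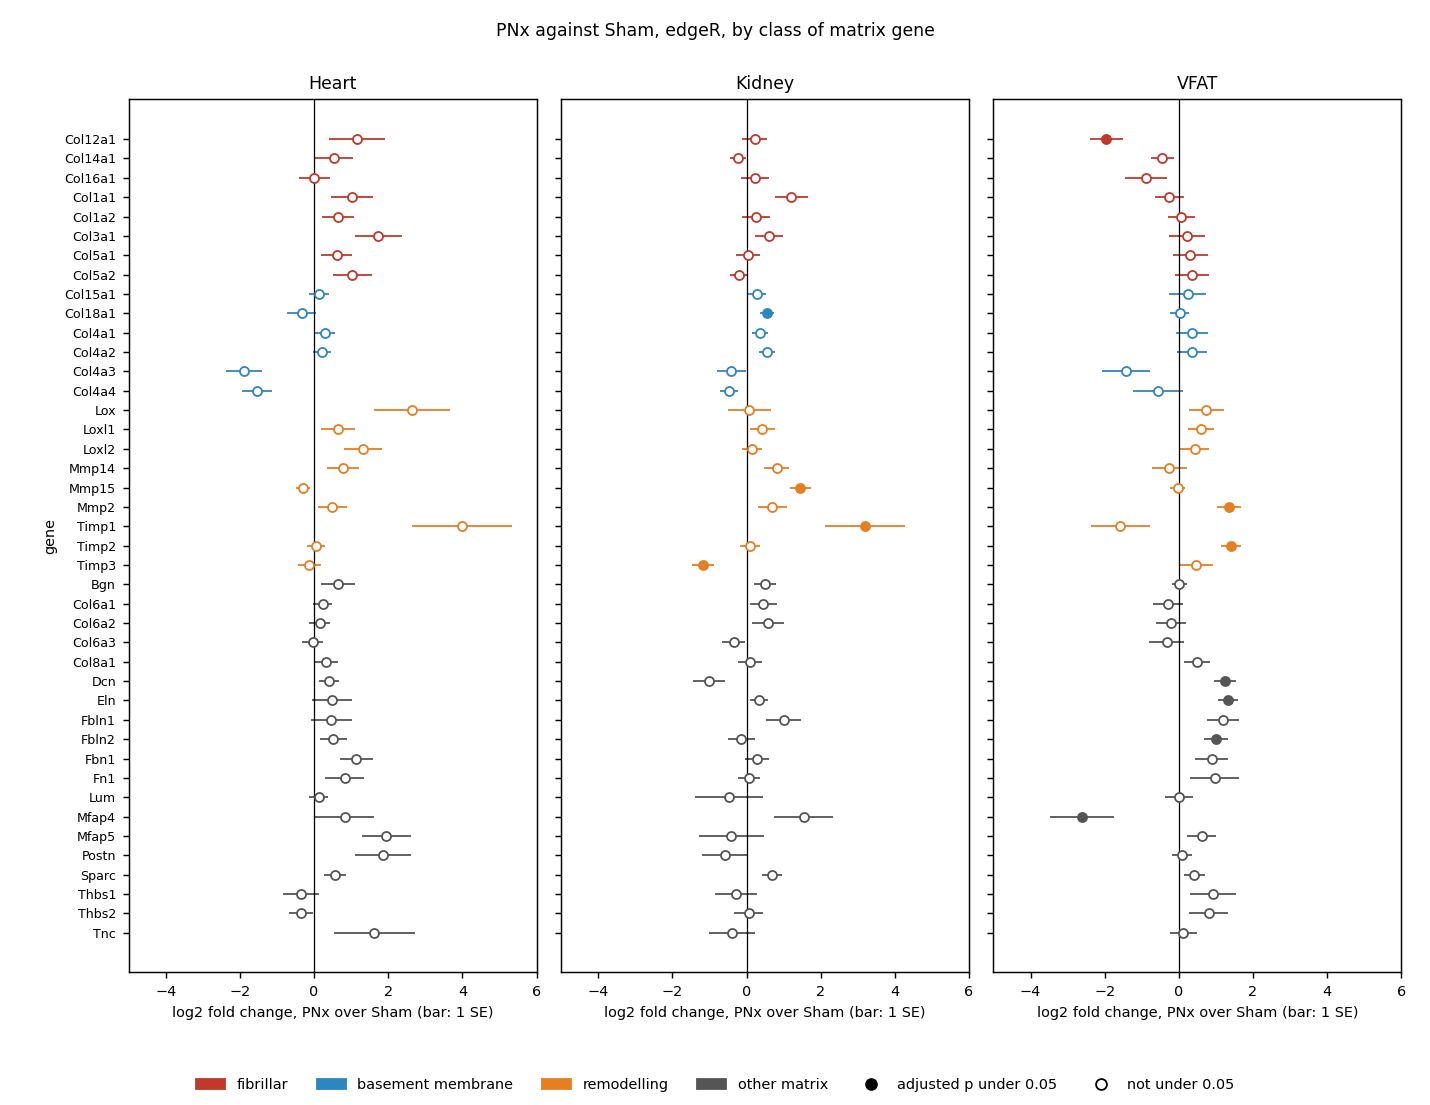
Log2 fold change of PNx against Sham ± 1 SE for each member, by class and tissue, with filled points for an adjusted p under 0.05. Timp1 has the largest values and the widest errors in heart and kidney, and 4 kidney and 7 fat points are filled, against 0 in the heart.

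Genes that make, bind or regulate these proteins were read from 5 lists: collagen synthesis and processing (21 genes), laminins and other basement membrane (17), matrix receptors (16), the TGF-beta and CCN pathway (19) and other proteases and inhibitors (19). In the heart PNx against Sham comparison none of the 20, 14, 15, 19 and 15 genes tested was called, and the list medians were 0.16, -0.095, -0.019, 0.18 and 0.35 on the log2 scale. The largest median was thus that of the proteases.

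In the kidney, where 16.8% of all genes were called, 3 of 13 receptors rose: Itgb5 (0.49), Itga5 (0.76), the fibronectin receptor chain, and Itgb3 (1.58), the beta chain of the vitronectin receptor. Of 18 synthesis genes Pcolce, which enhances procollagen cleavage, rose (1.26) and P3h2, a prolyl hydroxylase of type IV collagen, fell (-1.24). Of 17 TGF-beta and CCN genes Skil, an inhibitor of Smad signalling, fell (-1.23). No laminin (16 tested) or protease (14 tested) passed. The 5 medians were 0.072, -0.12, 0.31, 0.085 and 0.22 in the order of the lists above.

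In fat, where 13% of all genes were called, 5 of 16 other proteases and inhibitors rose and none fell (median 0.86): Mmp23 (1.84), Timp4 (1.72), the gelatinase Mmp9 (1.502) and the plasminogen activators Plau (1.01) and Plat (0.95). Of 19 synthesis genes 2 rose, Pcolce2 (1.23) and Bmp1 (0.82), the procollagen C-proteinase. Another 3 fell, the prolyl hydroxylase subunits P4ha2 (-1.80) and P4hb (-0.87) and the collagen export factor Mia3 (-1.02), and the list median was 0.42. Lamb3 fell (-1.85, 1 of 16), as did the receptor chain Itga8 (-2.11, 1 of 15). Of 18 TGF-beta and CCN genes Ltbp1 (1.03) and Tgfbi (0.84) rose and Skil fell (-2.58). The epididymis markers given above moved with these too. In the 12 cell-arm comparisons the lists held 1 called gene, Mmp9, lower with NaKtide than with scrambled cells in fat (-1.89).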

How the data were processed

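RNA was read in 2x50 base design, and trimming with Trimmomatic 0.38, alignment with HISAT2 2.1.0 and DESeq2 1.20.0 and 1.20.1 are named for GRCm38 in the submitters' processing notes. Of the counting tool, its strand setting and its annotation, none is given in the sources used here, and reads of overlapping antisense genes cannot be told apart. The authors deposited raw counts per gene, which were tested, and FPKM per gene. The FPKM were used only to compare levels between genes and between the Sham tissues. No further scaling between tissues was applied to them. Their normalized counts were not used here. The count table's columns matched 76 libraries of 74 samples, and 0 columns were unmatched. The second libraries of kidney Sham 3 and fat scrambled cells 3 were summed with the first, since they bear the same sample number. In log2 CPM the fat pair correlated at 0.987, against 0.914 to 0.949 with the other samples of its group. The kidney pair correlated at 0.975, below the 0.981 to 0.983 with the other Sham kidneys, so its shared number rests on the label alone. Kidney PNx against Sham had 3 called members with the second library left out and 7 with it kept separate. The library totals and their ranges are given with the results, and FPKM depth is unknown.

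Each tissue was fitted across its 5 arms with edgeR 4.0.16 in R 4.3.3 (filterByExpr, TMM scaling, two-sided quasi-likelihood F test), and p-values were adjusted over all genes tested by Benjamini-Hochberg at 0.05. A joint fit of the 15 groups gave the differences between tissues. Groups were taken from the sample titles. The members and lists were chosen with earlier results of these data known. Values in every sample are printed for called members (up to 6 per class), for Col1a1, Col1a2, Col3a1, Col4a1, Col4a2, Fn1, Postn, Timp1 and Mmp2 in PNx against Sham, and, where none was called, for the 2 members of lowest p. Outside this rule, they are also printed for Dcn in kidney PNx against Sham and for Col4a3 in fat NaKtide against scrambled cells, neither of which was called. From each list up to 4 called genes of lowest adjusted p were to be named, and 1 more of the protease list and of the synthesis list was named after its values were seen. Correlations of the deviations of same-numbered samples ran from -0.75 to 0.72, and no comparison had all pairs over 0.1. Some had most pairs over it. In kidney control cells against PNx the values were 0.72, 0.72, -0.48, 0.44 and 0.31. In heart NaKtide cells against PNx 4 of 5 were over 0.1. Whether a number links samples is not settled by these values. DESeq2 1.42.0, limma 3.58.1 (voom with quality weights), other scaling, no filter, a replicate block, an RNA length covariate and omitted libraries were tried as alternatives, and the fits were tested on simulated data.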

Additional observations from a re-analysis of the deposited data

Results flagged for a closer look

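Of 74 pairs of a gene and a group tested for a sample far from its group by Dixon's criterion, 12 had such a sample. The criterion flags about 1 in 20 by chance if values are normally distributed and pairs independent. Neither was shown for these CPM, so an excess over chance was not measured. In heart PNx 1 these were Col1a1 (473 CPM), Col1a2 (406 CPM), Col3a1 (1446 CPM), Fn1 (178 CPM), Mmp2 (192 CPM), Postn (408 CPM) and Timp1 (109 CPM). In heart Sham 4 they were Col1a1 (128 CPM), Col3a1 (263 CPM) and Col4a1 (579.6 CPM). Timp1 stood far from its group in kidney PNx 3 (7.89 CPM) and in fat PNx 4 (2.89 CPM). The 7 in heart PNx 1 belong to 1 library, so they are not separate observations.

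The effect of PNx differed between tissues, by a test of the difference itself, in 12 cases. These were 2, 4 and 6 of 42 members in the 3 contrasts below, against 12%, 9.41% and 11.7% of all genes. Several depended on which libraries were included, as given above for each contrast. Between kidney and heart these were Mmp15 (1.67) and Dcn (-1.43) on the log2 scale. Between fat and heart they were Col12a1 (-3.08), Timp1 (-5.45), Timp2 (1.35) and Mfap4 (-3.36). Without heart PNx 1 and scrambled cells 3 the 3 negative ones were no longer called. Between fat and kidney they were Dcn (2.29), Mmp15 (-1.42), Timp2 (1.37), Mfap4 (-4.05), Col12a1 (-2.13) and Timp3 (1.65).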

How the results depend on the processing

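The limits are the small groups (4 or 5 samples), single libraries that set a value, and transcripts of other tissues in some samples. The alternatives that omit heart PNx 1 and scrambled cells 3, fat Sham 1 and 4, all Sham fat but Sham 2, fat scrambled cells 2, 3 and 4, or fat libraries with proximal tubule transcripts were chosen after seeing the data. For the named members 1033 of 1185 values under an alternative kept their direction and their side of the threshold, 84 lost a call, 28 gained one and 40 changed sign.

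Numbers of called members moved as follows. Under DESeq2 they were 2 in heart PNx against Sham, 3 in kidney scrambled against control cells, 3 in fat NaKtide against scrambled cells and 1 in fat scrambled against control cells. Under limma voom they were 2 and 15 in heart NaKtide against PNx and scrambled against control cells. In the kidney voom gave 1 for control cells against PNx, 16 and 6 for NaKtide cells against PNx and against scrambled cells, and 21 for scrambled against control cells. In fat voom gave 6 for NaKtide cells against PNx and 2 for NaKtide against scrambled cells. Kidney PNx against Sham had 2 without the filter, 1 with only the 2 arms fitted, 7 with the second library kept separate and 0 once PNx 3 to 5 and control cells 4 and 5 were omitted. Kidney scrambled against control cells had 3 with the RNA length covariate and 2 without those libraries. Fat PNx against Sham had 0 with only the 2 arms, 3 without Sham 1 and 4, 0 with Sham 2 alone and 3 without proximal tubule libraries. Fat NaKtide against scrambled cells had 0 with only the 2 arms, 2 with the second library separate and 0 without proximal tubule libraries. Without scrambled cells 2, 3 and 4 that group held a single sample, so no count is given. The difference of PNx effects between kidney and heart had 1 without the filter, 0 without the libraries in doubt and 1 without heart PNx 1 and scrambled cells 3. That between fat and heart had 2 without the latter (both higher in fat) and 2 without fat Sham 1 and 4 (both lower in fat), and that between fat and kidney had 3 without the libraries in doubt and 2 without fat Sham 1 and 4. Since the samples share only a number, the replicate block is given here alone: it left 2 called members in kidney PNx against Sham, 0 in fat NaKtide against scrambled cells, and 1 and 2 in the effect differences of kidney and fat with heart. The cause of these moves was not tested.

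Signs changed for members that were not called, whose values ran up to 2.34 (Timp1 in fat scrambled against control cells). In heart PNx against Sham voom gave Col1a2 -0.089, Col4a1 -0.032, Col4a2 -0.025, Fn1 -0.27 and Mmp2 -0.19, and omitting PNx 1 and scrambled cells 3 gave Col1a2 -0.025, Col4a2 -0.028, Fn1 -0.081 and Mmp2 -0.22. In fat PNx against Sham voom gave Col1a2 -0.10 and Postn -0.028, and the length covariate gave Col1a2 -0.0068. Omitting fat Sham 1 and 4 gave Col1a2 -0.37, Col3a1 -0.38, Col4a1 -0.23, Col4a2 -0.21 and Postn -0.19. With Sham 2 alone the values were Col1a2 -0.43, Col3a1 -0.43, Col4a1 -0.47, Col4a2 -0.48 and Fn1 -0.37, and without proximal tubule libraries Col1a1 was 0.096. Timp1 in fat scrambled against control cells was -0.72 without scrambled cells 2, 3 and 4.

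Leaving out each sample in turn gave ranges. Heart PNx against Sham had 0 to 2 called members, with Col1a1 at -0.014 to 1.29, Col1a2 at -0.043 to 0.91, Col4a2 at -0.045 to 0.42, Fn1 at -0.093 to 1.10 and Mmp2 at -0.24 to 0.72. Kidney PNx against Sham had 1 to 7, with Fn1 at -0.095 to 0.21. The effect differences had 1 to 3 (kidney and heart), 2 to 4 (fat and heart) and 3 to 8 (fat and kidney). Fat NaKtide against scrambled cells had 0 to 2. In fat PNx against Sham Col1a1 was at -0.52 to 0.021, Col1a2 at -0.20 to 0.29, Col3a1 at -0.13 to 0.56 and Postn at -0.13 to 0.33.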
